A study of Arabidopsis thaliana with 12 samples.

Results

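Leaves under dexamethasone were compared between 4 h and 1 h of treatment, and the change was read beside the change of solvent-treated leaves over the same interval. The 2 groups were DEX 4 h and DEX 1 h, with 3 arrays each, 6 of the 12 arrays of the series; the mock 4 h and mock 1 h groups supply the other 6. All 12 arrays measured the third leaf of Arabidopsis thaliana seedlings at 9 days after stratification, of the Col-0 ecotype and carrying 35S::gai-GR. Every group therefore carries the transgene: it is driven by the constitutive viral 35S promoter and codes for the gai protein joined to the hormone-binding part of the glucocorticoid receptor. DEX plants had been moved to medium with 5 µM dexamethasone and mock plants to medium with DMSO, for 4 h or 1 h. Replicates came from independent experiments. Leaves of 128 plants were dissected; whether that number is per sample or for the whole series is not stated. Dexamethasone-treated plants that lack the transgene are not analysed here, so the action of dexamethasone itself and that of gai-GR cannot be told apart.

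Gibberellins promote growth by triggering the breakdown of DELLA proteins, nuclear repressors that work mainly by binding other transcription factors. The gai form of the DELLA protein GAI resists this breakdown, and the receptor part holds it outside the nucleus until dexamethasone binds. Young leaves grow first by cell division and then by expansion, and DELLA activity restrains both. Plants also adjust gibberellin levels through feedback: when DELLA activity is high, genes of gibberellin synthesis and perception are raised.

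The interval from 1 h to 4 h holds more than the continued presence of active gai. Time since transfer, time of day, plant age and the handling of the arrays all differ between 4 h and 1 h in both treatments, and cannot be told apart within one treatment. The mock arrays pass through the same interval, so each locus has 3 values: the DEX interval (DEX 4 h minus DEX 1 h), the mock interval (mock 4 h minus mock 1 h) and the difference of the intervals (DEX interval minus mock interval). The DEX and mock intervals share no array. Levels are the deposited log2 values of each probe set, and all changes and differences are on that log2 scale, where 1 unit is 2-fold. A locus is said to have risen, fallen or changed where limma's adjusted p was under 0.05 over all 21428 loci. Standard errors (SE) rest on 3 arrays a group, with the spread estimated over all 12 arrays. The median SE was 0.116 for the DEX interval and 0.163 for the difference. Loci are those of the table, with names from the reference; no coordinates are given because the build behind the table is not given in the sources used here.

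The arrays resembled each other closely within groups, with correlations over loci from 0.9933 to 0.995 for DEX 4 h, 0.9945 to 0.9951 for DEX 1 h, 0.9872 to 0.9949 for mock 4 h and 0.9964 to 0.9972 for mock 1 h. Replicate 2 of mock 4 h stood apart: it gave the lowest of these correlations and the lowest array median, 7.475, against up to 7.784. As a check of the labelled tissue, genes of the photosystems and Rubisco had a median level of 13.39, near the upper end of the scale. Root markers had a median level of 5.94 and shoot meristem and organ boundary markers 5.91, near the dim end, where the lower quartile of an array was as low as 5.79. Probe sets differ in brightness, so these levels place each list on the scale and are not compared with each other. Because whole leaves were ground, fewer cells of a type and less RNA per cell cannot be told apart in any result below.

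Control probe sets, which measure added or housekeeping RNA, also differed between the times. BioB, a spike-in added before hybridisation, read 6.63, 6.72 and 7.22 on the DEX 4 h arrays and 8.70, 8.76 and 8.59 on the DEX 1 h arrays, a difference of -1.82. On the mock arrays BioB read 6.70, 6.19 and 6.71 at 4 h and 8.59, 8.69 and 8.73 at 1 h, a difference of -2.14. The 4 h and 1 h arrays did not overlap in either treatment. Other spike-ins went the other way in DEX leaves: BioC differed by 0.28, BioD by 0.53 and Cre by 0.28 between 4 h and 1 h. The 5′ minus 3′ signal of actin, a measure of how complete the labelled RNA is, was -3.02, -3.07 and -3.00 on the DEX 4 h arrays and -2.15, -2.24 and -2.30 on the DEX 1 h arrays. In mock leaves it was -2.72, -2.93 and -3.09 at 4 h and -2.17, -2.12 and -2.12 at 1 h. These differences of -0.80 in DEX and -0.78 in mock leaves each reached the smallest p that 20 exact splits of 3 against 3 arrays can give, 0.1 (exact permutation test, two-sided). Both treatments thus carry a time difference in the control sets; its part in the loci described below was not tested.

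In DEX leaves 4160 of 21428 loci changed between 1 h and 4 h (19.4%): 2236 rose (10.4%) and 1924 fell (8.98%). In mock leaves 1990 changed (9.29%), of which 781 rose (3.64%) and 1209 fell (5.64%). The difference of the intervals passed for 274 loci (1.28%), positive in 207 (0.966%) and negative in 67 (0.313%). These shares of all loci are the background for the list counts below. Changes of at least 2-fold were found for 265 rises and 111 falls in DEX leaves, against 79 rises and 56 falls in mock leaves. The median change of all loci was close to 0, at -0.02 in DEX and -0.04 in mock leaves. Single arrays moved these counts by over 1.5 times. The DEX count was 2647 without replicate 1 of DEX 1 h. The mock count was 1013, 968 and 945 without replicates 1, 2 and 3 of mock 1 h. The count of differences was 412 without replicate 2 of mock 4 h, 174 without replicate 2 of DEX 1 h, and 170, 170 and 175 without replicates 1, 2 and 3 of mock 1 h. Leaving out replicate 2 of mock 4 h also gave 60.0% rises among the mock calls, against 39.2% with it, and 58.5% positive differences, against 75.5%. The split depended on scaling too. DEX calls were 53.8% rises as deposited, 49.1% after renewed quantile normalization, 32.8% with arrays centred on their median and 96.7% with arrays centred on the hybridisation spike-ins. Mock calls under these 3 scalings were 49.8%, 40.6% and 99.8% rises, and positive differences made up 57.4%, 57.7% and 47%.

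Much of the mock interval was also present in DEX leaves. Of the loci that rose in mock leaves, 78.2% rose in DEX leaves too (611 loci, 27.3% of the DEX rises). Of those that fell in mock leaves, 53.9% fell in DEX leaves (652 loci, 33.9% of the DEX falls). A further 28 loci changed in both treatments but in opposite directions. All 28 also passed the test of the difference, which calls in opposite directions all but ensure, so that adds no separate support. The converse is less settled: 2869 loci were called in DEX and not in mock leaves, and of these 197 (6.87%) passed the test of the difference. For the others a change in DEX leaves alone is not shown.

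**Figure D1:**
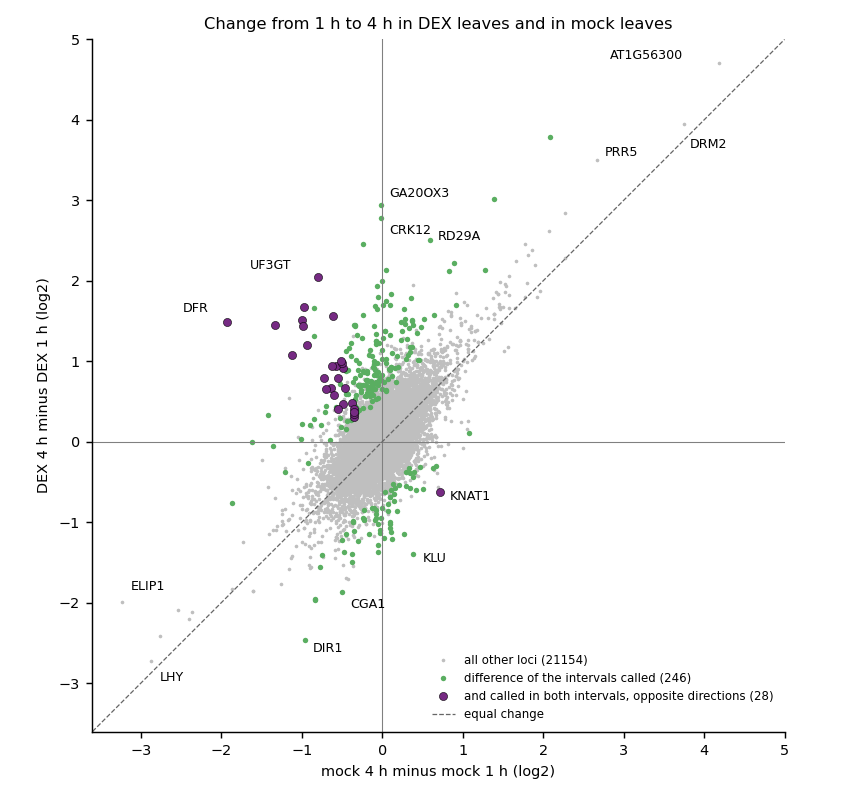
Change from 1 h to 4 h in mock leaves (x axis, log2) against the change in DEX leaves (y axis, log2), 1 point per locus, with green and purple for called differences (purple where both changes were called in opposite directions) and a dashed line for equal changes. LHY and DRM2 lie near the line, GA20OX3 and CRK12 far above it at a mock change near 0, and DFR in the upper left, where DEX leaves rose and mock leaves fell.

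Changes of clock and starch genes were shared by DEX and mock leaves. The plant clock is a loop in which the morning genes LHY and CCA1 repress evening genes and are repressed in turn by the PRR genes. Of 21 clock genes measured, 9 rose and 8 fell in DEX leaves (median change 0.13), and 9 rose and 7 fell in mock leaves (median -0.05). All 16 mock calls went the same way in DEX leaves. The test of the difference passed for 0 of the 21, and for 1.28% of all loci, so that 0 does not set the list apart. Among all loci 10.4% rose and 8.98% fell in DEX leaves.

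LHY (AT1G01060), a morning repressor of the clock, read 7.91, 7.76 and 8.06 on the DEX 4 h arrays and 10.45, 10.71 and 10.73 on the DEX 1 h arrays. The mock arrays read 7.91, 7.80 and 7.68 at 4 h and 10.71, 10.64 and 10.65 at 1 h. All 6 arrays at 4 h lay below all 6 at 1 h. LHY fell by 2.72 ± 0.11 in DEX leaves (limma adjusted p = 1.87e-09) and by 2.87 in mock leaves (adjusted p = 1.35e-09), a difference of 0.15 ± 0.15 (adjusted p = 0.782). Its partner CCA1 (AT2G46830) fell by 2.21 ± 0.11 in DEX leaves, and its mock change was -2.40. PRR5 (AT5G24470), a repressor of LHY and CCA1, read 10.12, 9.97 and 10.35 on the DEX 4 h arrays and 6.402, 6.327 and 7.195 on the DEX 1 h arrays. In mock leaves PRR5 read 9.72, 8.85 and 10.23 at 4 h and 6.76, 7.04 and 7.01 at 1 h. PRR5 rose in both treatments, by 3.505 ± 0.28 in DEX and 2.67 in mock leaves, and the larger value in DEX leaves did not pass the test of the difference (0.84 ± 0.40, adjusted p = 0.45). GI (AT1G22770), which links the clock to flowering, rose by 1.53 ± 0.12 in DEX and 1.39 in mock leaves. GRP7 (AT2G21660), an RNA-binding protein under clock control, rose by 1.88 ± 0.10 in DEX and 1.96 in mock leaves.

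**Figure D2:**
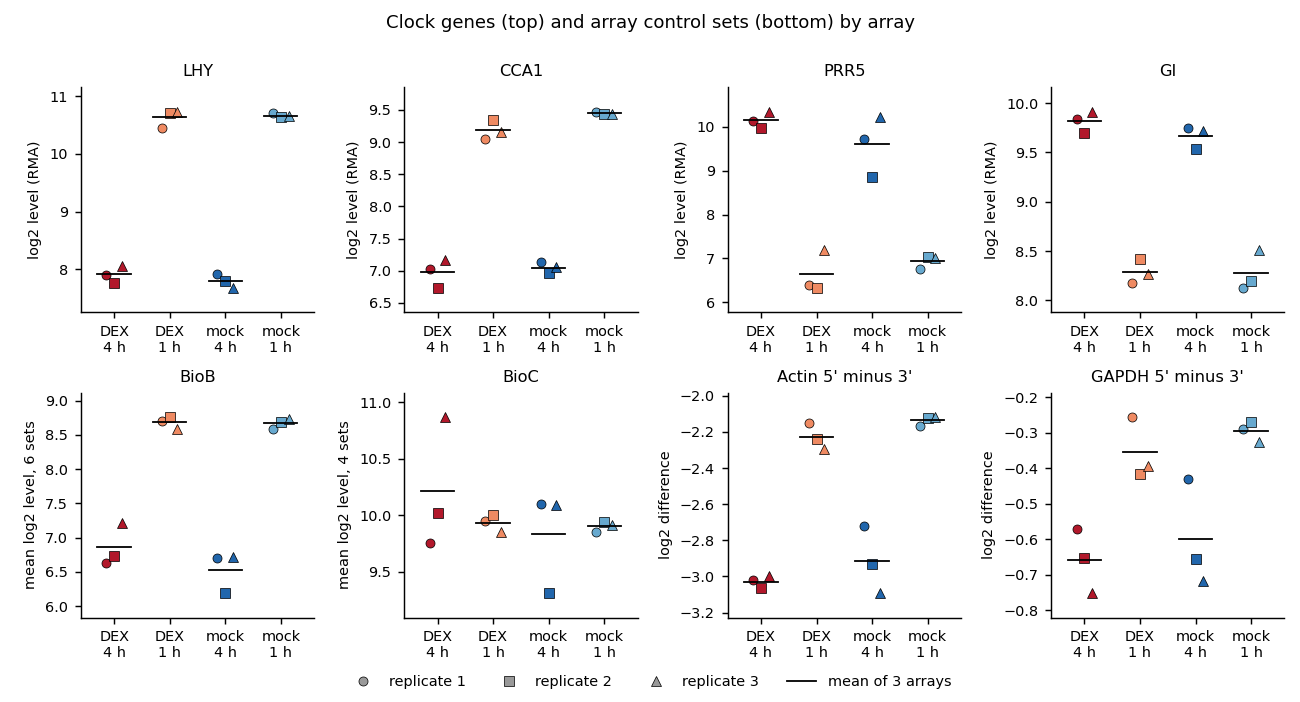
Levels (log2) of 4 clock genes in the upper row and of 4 control measures in the lower row, 1 point per array, with DEX 4 h, DEX 1 h, mock 4 h and mock 1 h from left to right and lines at the group means. In both treatments the 4 h arrays lie below the 1 h arrays for LHY, CCA1, BioB and the 5′ minus 3′ signals, and above them for PRR5 and GI.

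Clock outputs followed the same course. Among 16 genes of day length and light output, 10 fell and 2 rose in DEX leaves (median -0.60), while 10 fell and 1 rose in mock leaves (median -0.65). The test of the difference passed for 0 of the 16, beside 1.28% of all loci. COL2 (AT3G02380), a relative of the flowering regulator CONSTANS, fell by 2.42 ± 0.09 in DEX leaves, with a mock change of -2.76. AT3G12320 fell by 2.12 in DEX and 2.37 in mock leaves. BBX25 fell by 1.83 in DEX and 1.87 in mock leaves. ELIP1 (AT3G22840), an early light-induced protein that protects chloroplasts in strong light, fell by 2.00 ± 0.25 in DEX leaves, with a mock change of -3.23, and its relative ELIP2 by 2.09 in DEX and 2.53 in mock leaves. Of 14 genes of chlorophyll synthesis and light stress, 5 fell and 1 rose in each treatment. For both lists, the shares of all loci were 10.4% rises and 8.98% falls in DEX leaves, and 3.64% and 5.64% in mock leaves.

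Starch genes moved together in both treatments. Plants lay down starch by day and break it down by night, and the enzymes' transcripts follow the clock. Of 16 starch genes, 7 rose and 2 fell in DEX leaves (median 0.29), and the same 7 rose and the same 2 fell in mock leaves (median 0.21). Over all loci 10.4% rose and 8.98% fell in DEX leaves, and 3.64% rose and 5.64% fell in mock leaves. ISA3 (AT4G09020), a debranching enzyme, rose by 1.67 ± 0.13 in DEX and 1.51 in mock leaves. PWD (AT5G26570) and SEX1, which phosphorylate starch for breakdown, rose by 1.38 and 1.14 in DEX leaves and by 1.16 and 0.90 in mock leaves. Against these, GBSS1, a starch synthase, fell by 0.83 in DEX and 0.99 in mock leaves.

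DRM2 (AT2G33830), a dormancy-associated gene raised by sugar shortage, read 10.14, 10.31 and 10.02 on the DEX 4 h arrays and 6.002, 6.292 and 6.326 on the DEX 1 h arrays. Mock leaves matched it, with 10.04, 10.36 and 10.33 at 4 h and 6.51, 6.24 and 6.74 at 1 h. The rise of 3.95 ± 0.14 in DEX leaves (15.4-fold) stood beside 3.75 in mock leaves (13.4-fold). The largest rise of the DEX interval was that of AT1G56300, at 4.71 ± 0.11 (26.1-fold, adjusted p = 1.41e-11), against 4.18 in mock leaves. RbcX1, a helper of Rubisco assembly, rose by 2.84 in DEX and 2.27 in mock leaves. Of 13 carbon starvation markers as a whole, 3 rose and 3 fell in DEX leaves and 4 rose in mock leaves, so the list did not move one way. Among all loci 10.4% rose and 8.98% fell in DEX leaves, and 3.64% rose in mock leaves. The DEX falls numbered 1 without any one of 4 DEX arrays. TPS8 and KFB-CHS of that list, which fell by 0.37 and 0.77 in DEX leaves, passed the test of the difference at -0.77 and -0.84; for TPS8 both calls ended when one of several arrays was left out, with adjusted p of up to 0.141.

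**Figure D3:**
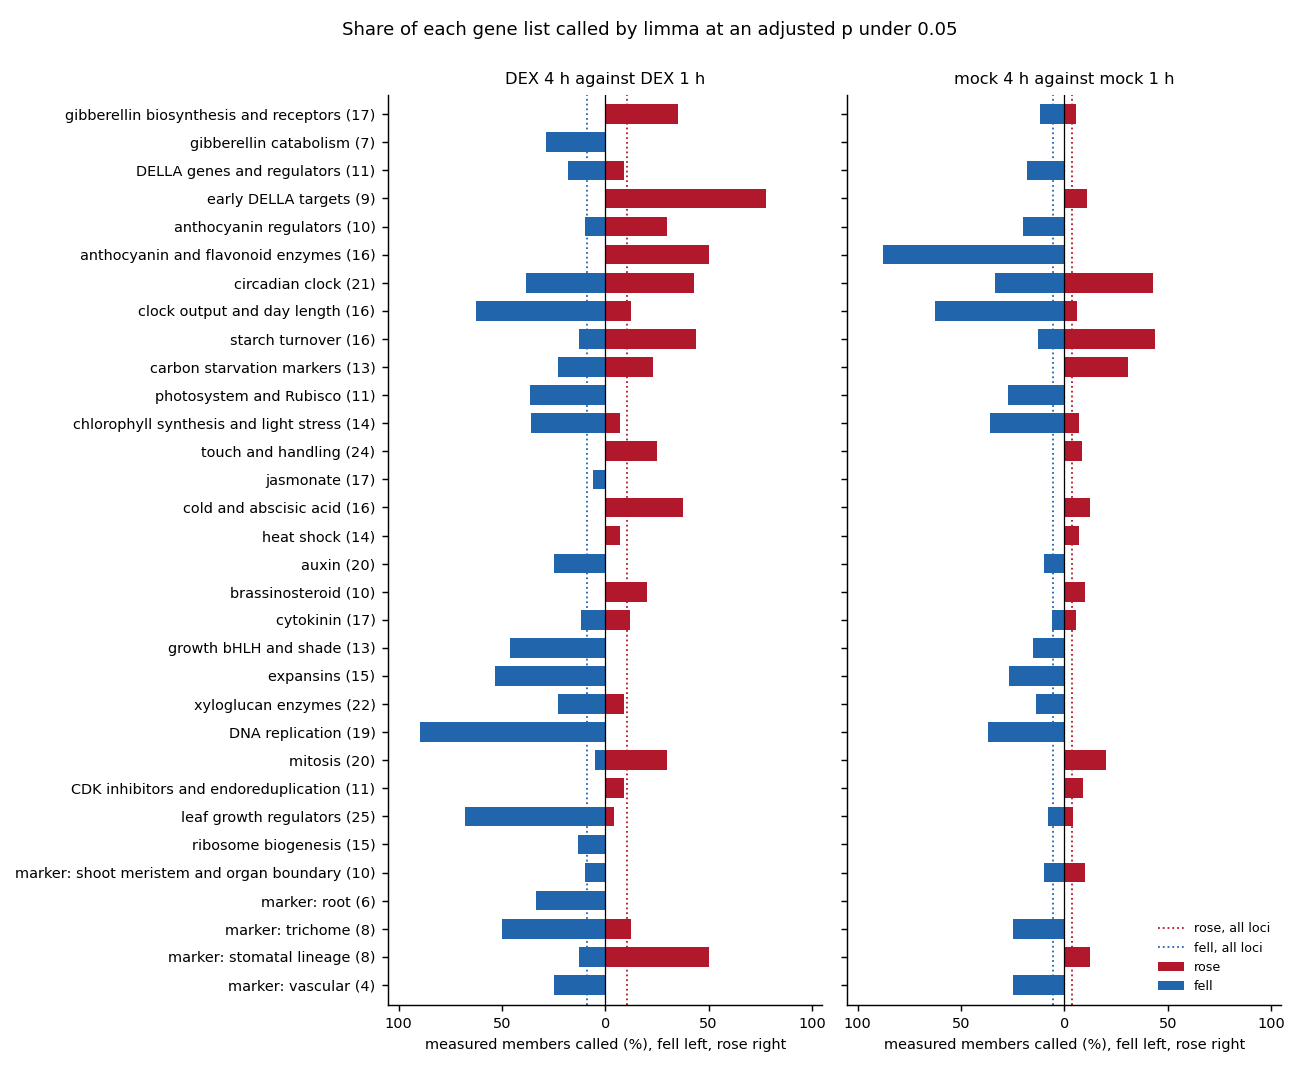
Share of each gene list's measured members that rose (to the right) or fell (to the left) in DEX leaves (left panel) and in mock leaves (right panel), with dotted lines at the share of all loci that rose or fell. The clock, starch and chlorophyll lists have similar bars in both panels, while anthocyanin enzymes rise on the left and fall on the right.

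Gibberellin genes rose in part in DEX leaves. Of 17 genes of gibberellin synthesis and perception, 6 rose and 0 fell in DEX leaves (median 0.27), beside 1 rise and 2 falls in mock leaves (median -0.03), and 3 passed the test of the difference, all positive. The count of differences was 5 without replicate 3 of mock 4 h. Among all loci 10.4% rose in DEX leaves, 3.64% rose and 5.64% fell in mock leaves, and 0.966% had a positive difference. GA20OX3 (AT5G07200), one of the GA20-oxidases, which carry out late steps towards active gibberellin, read 10.78, 10.24 and 10.14 on the DEX 4 h arrays and 7.78, 7.25 and 7.31 on the DEX 1 h arrays. The mock arrays lay between 5.43 and 5.75 at 4 h and between 5.61 and 5.63 at 1 h, near the dim end of the scale. GA20OX3 was thus already above mock at 1 h and stepped up again by 4 h, and the DEX 4 h, DEX 1 h and mock arrays did not overlap. The rise was 2.94 ± 0.17 (7.68-fold, adjusted p = 6.41e-08), against -0.01 in mock leaves, a difference of 2.95 ± 0.23 (adjusted p = 2.09e-05).

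GA20OX2 (AT5G51810) read 11.91, 11.80 and 11.93 on the DEX 4 h arrays and 10.71, 10.19 and 10.90 on the DEX 1 h arrays. Its mock arrays lay far below, at 6.48, 6.26 and 6.88 at 4 h and 6.25, 6.11 and 6.34 at 1 h. GA20OX2 rose by 1.28 ± 0.17 (adjusted p = 0.000177), with 0.31 in mock leaves and a difference of 0.98 ± 0.24 (adjusted p = 0.0733). GA20OX1 (AT4G25420) was already far above mock at 1 h. It read 10.40, 10.13 and 10.21 on the DEX 4 h arrays and 10.02, 9.96 and 10.10 on the DEX 1 h arrays. Its mock arrays lay between 5.71 and 6.54 at 4 h and 6.01 and 6.21 at 1 h. The DEX 4 h arrays lay slightly above the DEX 1 h arrays. Its change of 0.22 ± 0.16 did not pass (adjusted p = 0.367). Between 1 h and 4 h in DEX leaves, GA20OX2 and GA20OX3 thus passed the test and GA20OX1 did not, which does not show that GA20OX1 stayed level.

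Other genes of the pathway moved less. GA3OX1, which makes the active hormone from the GA20-oxidase product, rose by 0.99 ± 0.25 (adjusted p = 0.0131), with 0.04 in mock leaves, and its difference of 0.95 did not pass (adjusted p = 0.284). GA3 (AT5G25900), an early oxidase of the pathway, rose by 0.71 ± 0.10, against -0.10 in mock leaves, a difference of 0.82 (adjusted p = 0.00739). GA2, which acts still earlier, rose in both treatments, by 0.58 in DEX and 0.53 in mock leaves, though the mock call missed the threshold without replicate 1 of mock 1 h (adjusted p = 0.0528). Among the receptors, GID1A rose by 0.88 ± 0.11, with 0.34 in mock leaves, and its difference of 0.55 did not pass (adjusted p = 0.144). GID1B changed by 0.44 in DEX leaves (adjusted p = 0.103) and fell by 0.69 in mock leaves, with a difference of 1.14 (adjusted p = 0.047). That difference missed the threshold without any one of 8 arrays, with adjusted p of up to 0.129, and the mock fall without any one of 4, with adjusted p of up to 0.11. Of 7 GA2-oxidases, which inactivate gibberellin, GA2OX2 fell by 0.55 and GA2OX4 by 0.44 in DEX leaves and 0 were called in mock leaves. The differences of these intervals were not called for either gene, and the call of GA2OX4 ended without replicate 2 of DEX 4 h (adjusted p = 0.0593). The falls of GA2OX2 and GA2OX4 were 28.6% of the list, beside 8.98% of all loci. In mock leaves 9.29% of all loci were called.

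GAI (AT1G14920), whose probe set may also read the gai-GR transcript, read 12.95, 12.91 and 12.97 on the DEX 4 h arrays, 12.81, 12.89 and 12.85 on the DEX 1 h arrays, and between 12.82 and 12.97 on the mock arrays. Its change of 0.09 ± 0.08 did not pass (adjusted p = 0.447). RGA (AT2G01570), the closest relative of GAI, read 9.38, 9.39 and 9.42 on the DEX 4 h arrays and 9.81, 9.91 and 9.70 on the DEX 1 h arrays, without overlap. It fell by 0.41 ± 0.10 in DEX leaves (adjusted p = 0.0112). Its mock change was 0.05, slightly upward, and the difference of -0.46 was not called (adjusted p = 0.174). Without replicate 2 of DEX 1 h the adjusted p of the fall was 0.0514. Of the 11 DELLA genes and regulators, RGL2 also fell in DEX leaves and in mock leaves, and IDD2 rose by 0.36 in DEX leaves; both DEX calls ended without replicate 1 of DEX 1 h (adjusted p of 0.0587 and 0.09) and without replicate 3 of DEX 4 h.

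Genes known as early DELLA targets in seedlings rose in DEX leaves. Of 9 measured, 7 rose and 0 fell in DEX leaves (median 0.70), 1 rose in mock leaves (median -0.08), and 4 had a positive difference (2 without replicate 2 of DEX 1 h or replicate 2 of mock 1 h). Among all loci 10.4% rose in DEX leaves, 3.64% rose in mock leaves and 0.966% had a positive difference. LBD40 (AT1G67100), a LOB-domain transcription factor, read 9.70, 9.56 and 8.88 on the DEX 4 h arrays and 7.73, 7.96 and 8.30 on the DEX 1 h arrays, against mock arrays between 6.54 and 6.86 at 4 h and 6.62 and 6.79 at 1 h. It rose by 1.38 ± 0.19, with a difference of 1.35 ± 0.27 (adjusted p = 0.0216), which missed the threshold without any one of 7 arrays (adjusted p of up to 0.0718). TRM13 rose by 0.87 in DEX leaves and by 0.50 in mock leaves. SCL3, a GRAS protein that opposes DELLA, rose by 0.67, WRKY27 by 0.80, BHLH137 by 0.70 and AT3G11280 by 0.72. XERICO, which had 12.21, 12.13 and 12.01 on the DEX 4 h arrays and 11.68, 11.83 and 11.94 on the DEX 1 h arrays, did not pass (0.30, adjusted p = 0.0654), although both lay well above the mock arrays at 8.79, 8.89 and 9.14 at 4 h and 9.20, 9.14 and 9.19 at 1 h. The list was drawn up from DELLA studies and with earlier results of these arrays known, so its direction is not independent evidence.

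Anthocyanin genes moved apart between the treatments. Anthocyanins are red pigments made from phenylalanine through the flavonoid pathway, under a complex of MYB, bHLH and WD40 proteins. Of 16 enzymes and transporters of the pathway, 8 rose and 0 fell in DEX leaves (median 0.71), whereas 14 fell and 0 rose in mock leaves (median -0.98). The difference was positive and called in 12 of 16, and 7 of the 16 changed in opposite directions. Over all loci 10.4% rose in DEX leaves, 5.64% fell in mock leaves and the difference was positive in 0.966%.

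**Figure D4:**
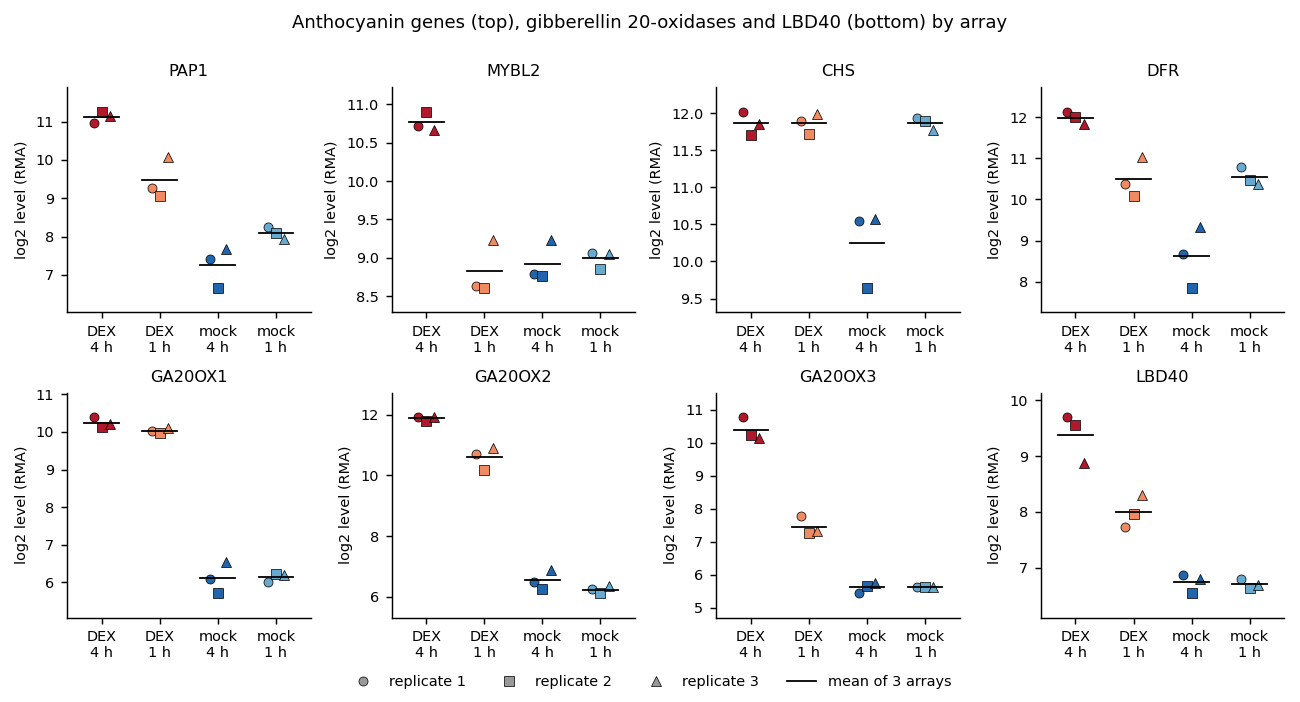
Levels (log2) of 4 anthocyanin genes in the upper row and of 3 GA20-oxidases and LBD40 in the lower row, 1 point per array, with DEX 4 h, DEX 1 h, mock 4 h and mock 1 h from left to right and lines at the group means. DFR is highest at DEX 4 h and lowest at mock 4 h, with both 1 h groups between them. GA20OX1 differs little between the DEX times and GA20OX3 differs more.

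PAP1 (AT1G56650), the MYB activator of the pigment genes, read 10.97, 11.26 and 11.16 on the DEX 4 h arrays and 9.27, 9.06 and 10.07 on the DEX 1 h arrays, against 7.40, 6.65 and 7.67 in mock leaves at 4 h and 8.26, 8.10 and 7.92 at 1 h. DEX arrays were higher at 4 h than at 1 h and mock arrays lower, and none of the 4 groups overlapped. PAP1 rose by 1.66 ± 0.25 (adjusted p = 0.000461), the mock change was -0.85 (adjusted p = 0.0511), and the difference was 2.51 ± 0.36 (adjusted p = 0.00252). TT8, a bHLH partner, rose by 1.45 ± 0.17, with a difference of 1.80. MYBL2 (AT1G71030), a repressor of the same pathway, rose with them: 10.72, 10.90 and 10.67 on the DEX 4 h arrays against 8.63, 8.61 and 9.24 on the DEX 1 h arrays, with mock arrays between 8.76 and 9.23 at 4 h and 8.86 and 9.06 at 1 h. Its rise was 1.94 ± 0.16, and the difference 2.01 ± 0.23 (adjusted p = 0.000476). Of the 10 regulators listed, 3 rose and 1 fell in DEX leaves (median 0.15), and 0 rose and 2 fell in mock leaves (median -0.32). Those 2, PAP2 and LBD37, each lost the mock call without one of 2 arrays (adjusted p of up to 0.0723 and 0.0935), and the count of mock falls ran from 0 to 4 over the arrays left out. The one fall in DEX leaves was that of EGL3, by 0.34, a call that ended without any one of 4 arrays (adjusted p of up to 0.118). That fall was 10% of the list, near the 8.98% of all loci, and the DEX rises were 30%, beside 10.4%. Falls over all loci were 5.64% in mock leaves. PAP2, a close copy of PAP1 in function, changed by 0.11 in DEX leaves (adjusted p = 0.692).

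Some genes of the route, with PAL1 at its start and DFR among the later ones, rose in DEX leaves and fell in mock leaves. DFR (AT5G42800), which makes the direct precursors of the pigments, read 12.133, 11.998 and 11.839 on the DEX 4 h arrays and 10.38, 10.09 and 11.02 on the DEX 1 h arrays, against 8.68, 7.85 and 9.32 in mock leaves at 4 h and 10.78, 10.47 and 10.39 at 1 h. The 1 h arrays of both treatments overlapped, and the 4 h arrays lay on either side of them. DFR rose by 1.49 ± 0.29 (adjusted p = 0.00276) in DEX leaves and fell by 1.93 (adjusted p = 0.0011) in mock leaves, a difference of 3.42 ± 0.41 (10.7-fold, adjusted p = 0.000655), the largest among all differences of loci named here. UF3GT (AT5G54060), a sugar transferase of the pigments, rose by 2.05 ± 0.21 in DEX leaves and fell by 0.80 in mock leaves (adjusted p = 0.0305). The mock call of UF3GT ended without replicate 2 of mock 4 h or without any one mock 1 h array (adjusted p of up to 0.111), and its change was then as small as -0.53. TT7, a hydroxylase of the B ring, rose by 1.67 in DEX leaves and fell by 0.97 in mock leaves. TT19, needed to bring the pigments to the vacuole, rose by 1.08 in DEX leaves and fell by 1.12 in mock leaves. PAL1 (AT2G37040), which starts the route from phenylalanine, read 11.58, 11.57 and 11.47 on the DEX 4 h arrays and 10.03, 9.99 and 10.07 on the DEX 1 h arrays, and the mock arrays lay between 8.33 and 9.02 at 4 h and 9.60 and 9.82 at 1 h. PAL1 rose by 1.51 ± 0.14, with a difference of 2.51 ± 0.20 (adjusted p = 2.09e-05).

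For CHS and F3H, enzymes early in the flavonoid branch, the difference lay in mock leaves. CHS (AT5G13930), chalcone synthase, read 12.02, 11.71 and 11.86 on the DEX 4 h arrays and 11.90, 11.72 and 11.99 on the DEX 1 h arrays, against 10.55, 9.64 and 10.57 in mock leaves at 4 h and 11.93, 11.90 and 11.78 at 1 h. The mock 4 h arrays alone stood low. CHS changed by -0.00 ± 0.19 in DEX leaves (adjusted p = 0.991) and fell by 1.62 in mock leaves (adjusted p = 0.000174), a difference of 1.61 ± 0.27 (adjusted p = 0.00804). F3H, the next oxidase, changed by 0.33 in DEX leaves (adjusted p = 0.192) and fell by 1.42 in mock leaves. FLS1, which diverts intermediates to flavonols, and CHI fell by 1.14 and 0.88 in mock leaves, and their differences of 0.72 and 0.66 did not pass. The mock call of CHI ended without any one mock 1 h array (adjusted p of up to 0.0651). Without replicate 2 of mock 4 h, 10 of the 16 enzymes rose and 2 fell in DEX leaves, 13 fell in mock leaves and 12 differences were positive.

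The same opposite course was seen in loci outside the list. Of the 28 loci that changed in both treatments in opposite directions, 27 rose in DEX and fell in mock leaves. These 27 include the 7 enzymes and transporters of the list described above. MYB56 (AT5G17800) rose by 1.57 ± 0.14 in DEX leaves and fell by 0.61 in mock leaves, although the mock call ended without replicate 2 of mock 1 h (adjusted p = 0.0699). BGLU11 (AT1G02850) rose by 1.21 in DEX leaves and fell by 0.94 in mock leaves. ABCC2 (AT2G34660), a vacuolar transporter of conjugates, rose by 0.79 in DEX leaves and fell by 0.72 in mock leaves. The one locus in the other direction was KNAT1, described with the growth regulators.

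Some loci far from both themes rose in DEX leaves. CRK12 (AT4G23200), a receptor-like kinase, read 9.00, 9.07 and 9.34 on the DEX 4 h arrays and 6.54, 6.23 and 6.30 on the DEX 1 h arrays, against mock arrays between 5.84 and 5.91 at 4 h and 5.84 and 5.93 at 1 h. It rose by 2.78 ± 0.11, with a difference of 2.79 ± 0.15 (adjusted p = 7.51e-07), the smallest adjusted p of a difference among the loci named. PUP1 (AT1G28230), a purine and cytokinin transporter, rose by 2.46 ± 0.14, with a difference of 2.70 ± 0.20. CIPK21 (AT5G57630), a kinase of calcium signalling, rose in both treatments, by 3.02 ± 0.11 in DEX and 1.39 in mock leaves, and the rises differed by 1.63 ± 0.16 (adjusted p = 0.000162). AT4G16146 likewise rose by 3.79 in DEX and 2.09 in mock leaves, but its difference of 1.70 (adjusted p = 0.0207) missed the threshold without any one of 5 arrays (adjusted p of up to 0.0718).

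Cold and abscisic acid genes rose in part. Of 16 measured, 6 rose and 0 fell in DEX leaves (median 0.28), 2 rose in mock leaves (median 0.31) and 1 difference passed. The rises over all loci were 10.4% in DEX and 3.64% in mock leaves. The mock rises numbered 5 or 6 without replicate 1 or 3 of DEX 4 h or replicate 2 of mock 4 h. The called difference was that of RD29A (AT5G52310), a classic drought and cold marker, with 9.68, 10.24 and 10.93 on the DEX 4 h arrays and 7.68, 7.92 and 7.72 on the DEX 1 h arrays, against mock arrays at 8.73, 8.60 and 8.86 at 4 h and 8.31, 7.97 and 8.12 at 1 h. RD29A rose by 2.51 ± 0.22, with 0.59 in mock leaves (adjusted p = 0.112) and a difference of 1.92 ± 0.31 (adjusted p = 0.00696). COR15B (AT2G42530), a chloroplast protein of cold hardening, rose alike, by 2.28 ± 0.34 in DEX and 2.27 in mock leaves. CBF1, an activator of the cold genes, rose by 1.502 in DEX and 0.769 in mock leaves; the mock call ended without any one of 4 arrays (adjusted p of up to 0.148). Outside the list, RCI2A, a small membrane protein raised by cold, rose by 2.62 in DEX and 2.08 in mock leaves.

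Touch and handling genes, which respond within minutes to movement, rose for 6 of 24 in DEX leaves (median 0.33) and for 2 of 24 in mock leaves (median 0.02), with 0 differences called. Among all loci 10.4% rose in DEX leaves, 3.64% rose in mock leaves and 1.28% had a called difference. The 2 mock rises, of ERF104 and CML38, were lost without one of 8 and one of 2 arrays (adjusted p of up to 0.203 and 0.0991), and the count of mock rises ran from 0 to 3 over the arrays left out. ERF104 rose by 1.24 and CMPG1 by 1.10 in DEX leaves. Of 17 jasmonate genes, JAZ3 fell by 0.62 in DEX leaves and 0 were called in mock leaves. Of 14 heat shock genes only DREB2A was called, with a rise in both treatments, by 1.44 in DEX and 0.72 in mock leaves. In DEX leaves the JAZ3 fall was 5.88% of its list, beside 8.98% of all loci, and the DREB2A rise 7.14%, beside 10.4%.

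Genes of DNA replication fell in DEX leaves almost as a block. These genes copy the DNA before cell division and are switched on together by E2F factors. Of 19 measured, 17 fell and 0 rose in DEX leaves (median -0.79), beside 7 falls and 0 rises in mock leaves (median -0.29). All 7 mock falls were shared with DEX leaves. Falls over all loci were 8.98% in DEX and 5.64% in mock leaves. The difference of the intervals passed for 3 of 19, all negative, so for most members a stronger fall in DEX leaves is not shown locus by locus. That count of differences was 8 without replicate 2 of mock 4 h and 0 or 1 without any one of 10 other arrays, while the DEX falls ran from 15 to 18 over single arrays and replicate numbers.

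CYCA3;1 (AT5G43080), an S-phase cyclin, read 8.70, 8.84 and 8.60 on the DEX 4 h arrays and 9.841, 9.997 and 9.976 on the DEX 1 h arrays, against 9.58, 9.34 and 9.68 in mock leaves at 4 h and values of at least 10 in mock leaves at 1 h. The DEX 4 h arrays were the lowest of all and did not overlap any other group. It fell by 1.23 ± 0.10 in DEX leaves (adjusted p = 3.37e-06) and by 0.50 in mock leaves, a difference of -0.72 ± 0.15 (adjusted p = 0.0261, up to 0.0838 without one of 8 arrays). PCNA1 (AT1G07370), the sliding clamp of DNA polymerase, read 11.54, 11.62 and 11.29 on the DEX 4 h arrays and 12.45, 12.48 and 12.48 on the DEX 1 h arrays, and the mock arrays 12.22, 12.11 and 12.19 at 4 h and 12.51, 12.53 and 12.60 at 1 h. PCNA1 fell by 0.98 ± 0.09 in DEX leaves and by 0.37 in mock leaves (a mock call lost without any one mock 1 h array, adjusted p of up to 0.104), with a difference of -0.62 ± 0.13 (adjusted p = 0.0347, up to 0.111 without one of 10 arrays). CDT1A (AT2G31270), a licensing factor of replication origins, fell by 0.83 ± 0.11 in DEX leaves, against -0.10 in mock leaves, with a difference of -0.72 ± 0.16 (adjusted p = 0.035, up to 0.103 without one of 11 arrays). MCM3 (AT5G46280), a subunit of the replicative helicase, read 9.65, 9.76 and 9.88 on the DEX 4 h arrays and 10.78, 10.79 and 10.82 on the DEX 1 h arrays. In mock leaves it read 10.29, 9.99 and 10.47 at 4 h and 10.76, 10.79 and 10.78 at 1 h. MCM3 fell by 1.03 ± 0.11 in DEX and by 0.52 in mock leaves, and the difference of -0.50 did not pass (adjusted p = 0.176). FAS2, of the chromatin assembly factor, fell alike, by 1.00 in DEX and 0.84 in mock leaves.

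Mitotic genes did not fall with the replication genes. Of 20 measured, 6 rose and 1 fell in DEX leaves (median 0.25), beside 4 rises and 0 falls in mock leaves (median 0.25), with 0 differences called. The shares of all loci were 10.4% for DEX rises, 3.64% for mock rises and 1.28% for called differences. The mock rises numbered 8 without replicate 2 of mock 4 h and 2 without any one of 4 other mock arrays. HINKEL (AT1G18370), a kinesin of the dividing cell's new wall, rose by 0.65 ± 0.10 in DEX and 0.51 in mock leaves. CYCB3;1, a mitotic cyclin, rose by 0.46 in DEX and 0.49 in mock leaves. CYCB2;1 and TPX2 rose by 0.52 and 0.48 in DEX leaves. The kinases CDKB2;2 and CDKB2;1 rose by 0.55 and 0.35 in DEX leaves, calls that ended without one of several arrays (adjusted p of up to 0.118 and 0.0907). The fall of CYCA2;4 by 0.36 also ended without one of 3 arrays (adjusted p of up to 0.0787). Among 11 CDK inhibitors and endoreduplication genes, CCS52B rose in both treatments and 0 others were called; its mock call ended without replicate 3 of mock 1 h (adjusted p = 0.0631).

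**Figure D5:**
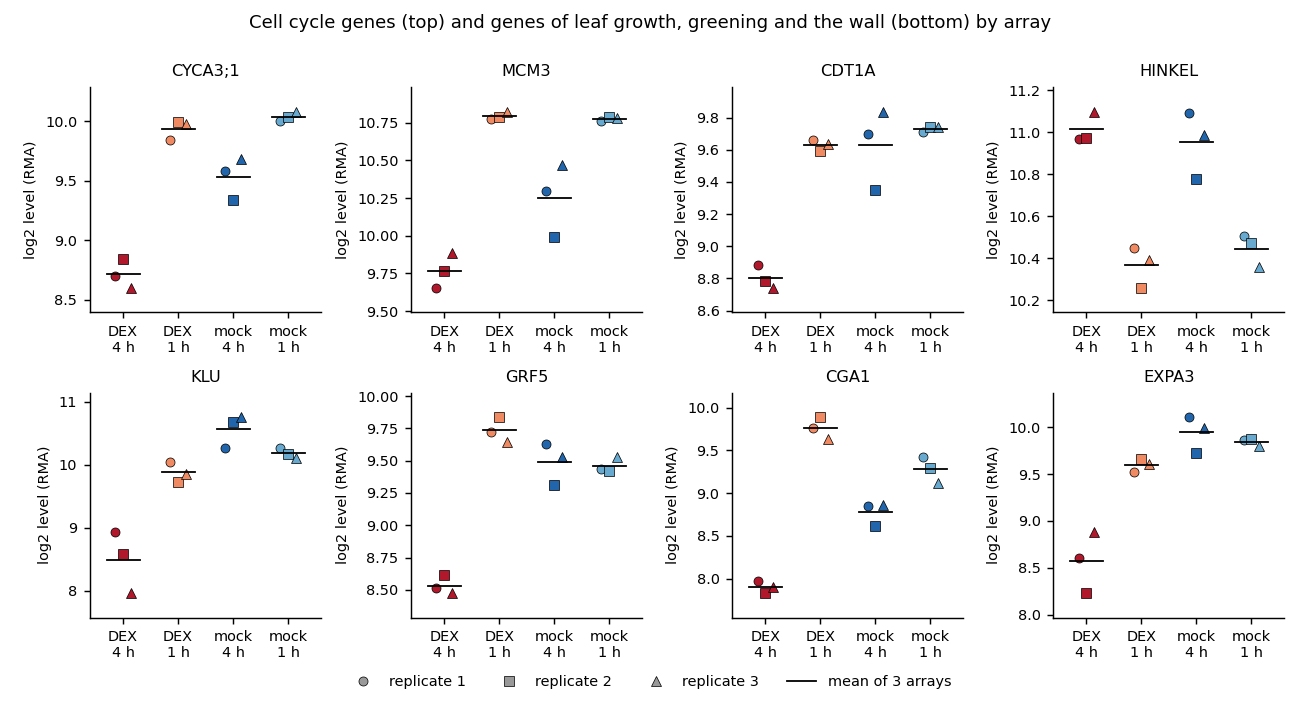
Levels (log2) of 4 cell cycle genes in the upper row and of 4 growth genes in the lower row, 1 point per array, with DEX 4 h, DEX 1 h, mock 4 h and mock 1 h from left to right and lines at the group means. CYCA3;1 and MCM3 are lowest at DEX 4 h and lower at 4 h than at 1 h in mock leaves too, HINKEL is higher at 4 h in both treatments, and KLU, GRF5 and EXPA3 are low at DEX 4 h only.

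Leaf growth regulators fell in DEX leaves. Of 25 measured, 17 fell and 1 rose (median -0.51), beside 2 falls and 1 rise in mock leaves (median -0.22), and 5 had a negative difference. Without replicate 1 of DEX 1 h the DEX falls numbered 13, and the differences numbered 2 or 3 without any one of 9 arrays. Among all loci 8.98% fell in DEX leaves, 5.64% fell in mock leaves and 0.313% had a negative difference. KLU (AT1G13710), a cytochrome P450 that prolongs growth of leaves and other organs, read 8.93, 8.58 and 7.96 on the DEX 4 h arrays and 10.05, 9.73 and 9.86 on the DEX 1 h arrays, against 10.27, 10.68 and 10.76 in mock leaves at 4 h and 10.27, 10.17 and 10.11 at 1 h. The DEX 4 h arrays were below all others. KLU fell by 1.39 ± 0.20 in DEX leaves (adjusted p = 0.000256), the mock change was 0.39 (adjusted p = 0.245) and the difference -1.78 ± 0.28 (adjusted p = 0.0049). GRF5 (AT3G13960), a growth-regulating factor that sustains cell division in leaves, read 8.51, 8.61 and 8.47 on the DEX 4 h arrays and 9.72, 9.84 and 9.64 on the DEX 1 h arrays, with mock arrays between 9.31 and 9.63 at 4 h and 9.42 and 9.53 at 1 h. GRF5 fell by 1.20 ± 0.10 (adjusted p = 2.55e-06), with a difference of -1.23 ± 0.14 (adjusted p = 0.000383).

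GIF1, GRF3 and GRF7 fell with GRF5 in DEX leaves. GIF1, the coactivator that binds GRF proteins, fell by 0.85 ± 0.12, GRF3 by 0.59 and GRF7 (AT5G53660) by 0.60. Their differences of -0.76, -0.70 and -1.02 passed, but each missed the threshold without one of 9, 9 and 5 arrays, with adjusted p of up to 0.0989, 0.0951 and 0.0697. TCP10, one of the factors that end cell division in leaves, fell by 1.14 ± 0.18, and its difference of -0.58 did not pass (adjusted p = 0.393). KNAT1 (AT4G08150), a homeobox gene of the meristem that is kept off in leaf blades, read 5.99, 6.14 and 5.60 on the DEX 4 h arrays and 6.58, 6.61 and 6.41 on the DEX 1 h arrays, against 7.11, 7.11 and 7.50 in mock leaves at 4 h and 6.48, 6.59 and 6.49 at 1 h. It fell by 0.63 ± 0.14 in DEX leaves and rose by 0.72 in mock leaves, a difference of -1.34 ± 0.20 (adjusted p = 0.00297). Of the 10 meristem and boundary markers, KNAT1 was the only one called in DEX leaves, and KNAT1 and CUC3 were called in mock leaves, CUC3 with adjusted p of up to 0.148 without one array. The KNAT1 fall in DEX leaves was 10% of these markers, near the 8.98% of all loci. The share of meristem or stem tissue in the dissected leaves, and its part in the KNAT1 values, was not tested.

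Genes of the growing wall fell in part in both treatments. Expansins loosen the wall as cells enlarge. Of 15 measured, 8 fell and 0 rose in DEX leaves (median -0.49), 4 fell in mock leaves (median -0.32) and all 4 were shared. The DEX falls numbered 5 without replicate 2 of DEX 4 h. Falls over all loci were 8.98% in DEX and 5.64% in mock leaves. EXPA3 (AT2G37640) read 8.60, 8.23 and 8.88 on the DEX 4 h arrays and 9.52, 9.66 and 9.61 on the DEX 1 h arrays, with mock arrays between 9.72 and 10.11 at 4 h and 9.80 and 9.88 at 1 h. It fell by 1.02 ± 0.14 and was the one expansin with a called difference, -1.12 ± 0.20 (adjusted p = 0.0113). EXPA1 fell by 0.97 in DEX and 0.90 in mock leaves. Of 22 xyloglucan enzymes, which cut and rejoin wall polymers, 2 rose and 5 fell in DEX leaves and 3 fell in mock leaves. The DEX rises were 9.09% of the list, near the 10.4% of all loci, and the DEX falls 22.7%, beside 8.98%. XTH15 (AT4G14130) went against most, with a rise of 1.07 ± 0.12 and a difference of 1.46 ± 0.17 (adjusted p = 0.000577). XTH31 rose by 0.73, a call that ended without replicate 2 of DEX 1 h (adjusted p = 0.057). BXL1 and BXL2, wall-trimming xylosidases and arabinosidases, fell by 1.36 and 1.12 in DEX leaves, with differences of -1.31 and -1.23.

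Other hormone lists had calls in either direction. Of 20 auxin genes 5 fell and 0 rose in DEX leaves (median -0.14), 2 fell in mock leaves (median -0.20) and 1 difference passed, that of AUX1. Among all loci 10.4% rose and 8.98% fell in DEX leaves, and 5.64% fell in mock leaves. AUX1 (AT2G38120), an auxin influx carrier, read 9.32, 9.07 and 9.23 on the DEX 4 h arrays and 10.05, 9.95 and 9.84 on the DEX 1 h arrays, with mock arrays between 9.97 and 10.18 at 4 h and 9.85 and 9.95 at 1 h. AUX1 fell by 0.74 ± 0.10, with a difference of -0.89 ± 0.14 (adjusted p = 0.0048). Of 10 brassinosteroid genes 2 rose and 0 fell in DEX leaves, and 1 rose in mock leaves, where 3.64% of all loci rose. The 2 were synthesis enzymes: BR6OX2 rose by 1.13 ± 0.15, with a difference of 1.58, and DWF4 by 0.69. The DWF4 difference of 0.99 missed the threshold without any one of 5 arrays (adjusted p of up to 0.0697). Both enzymes are lowered by brassinosteroid itself through feedback.

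Of 17 cytokinin genes 2 rose and 2 fell in DEX leaves, near the 10.4% and 8.98% of all loci. CGA1 (AT4G26150), a GATA factor that promotes greening, read 7.97, 7.83 and 7.90 on the DEX 4 h arrays and 9.77, 9.89 and 9.63 on the DEX 1 h arrays, against 8.85, 8.62 and 8.87 in mock leaves at 4 h and 9.42, 9.30 and 9.12 at 1 h. It fell by 1.87 ± 0.11 in DEX leaves (adjusted p = 8.18e-08) and by 0.50 in mock leaves, a difference of -1.37 ± 0.15 (adjusted p = 0.000363). The mock call ended without replicate 1 of mock 1 h (adjusted p = 0.0589). Of 13 growth bHLH and shade genes 6 fell in DEX leaves (median -0.46) and 2 in mock leaves (median -0.23). PAR1 (AT2G42870), a brake on shade growth, fell by 1.21 ± 0.13, with a difference of -1.32 ± 0.18 (adjusted p = 0.00196). PIF5, which promotes elongation in the dark, fell by 0.91 in DEX and 0.54 in mock leaves; without replicate 1 of mock 1 h the mock call missed the threshold (adjusted p = 0.0552).

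Of 11 photosystem and Rubisco genes, 4 fell in DEX leaves (median -0.16), where 8.98% of all loci fell, and 3 in mock leaves (median -0.16), where 5.64% of all loci fell. All 11 had lower means at 4 h than at 1 h in DEX and in mock leaves. The DEX falls numbered 2 without any one of 3 DEX arrays. LHCB2.3 (AT3G27690), an antenna protein, had the largest change of the list, with 9.81, 9.82 and 10.28 on the DEX 4 h arrays and 11.92, 11.89 and 11.99 on the DEX 1 h arrays, against mock arrays between 11.28 and 11.46 at 4 h and 12.11 and 12.26 at 1 h. LHCB2.3 fell by 1.96 ± 0.12 in DEX and 0.83 in mock leaves, a difference of -1.13 ± 0.17 (adjusted p = 0.00318). Another large fall was that of DIR1, a lipid carrier of systemic defence, which fell by 2.46 ± 0.16 in DEX and 0.96 in mock leaves, with a difference of -1.50. Of 15 ribosome biogenesis genes (median -0.13 in DEX and -0.10 in mock leaves), FIB2 and RPL5B fell in DEX leaves and 0 were called in mock leaves. These falls were 13.3% of the list, beside 8.98% of all loci. The call of RPL5B ended without any one of 10 arrays (adjusted p of up to 0.145).

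Some genes that mark single cell types changed. Of 8 trichome markers 4 fell and 1 rose in DEX leaves, where 8.98% of all loci fell, and 2 fell in mock leaves, where 5.64% of all loci fell. GIS fell by 1.19 ± 0.16, GL1, a MYB activator of leaf hairs, by 0.81, and TRY, which blocks hair fate in neighbours, by 0.94 in DEX and 0.54 in mock leaves. TTG2, also active in hairs and seed coats, went the other way, with 9.16, 9.03 and 8.68 on the DEX 4 h arrays and 7.97, 7.97 and 8.27 on the DEX 1 h arrays, a rise of 0.89 ± 0.14 and a difference of 1.19 (adjusted p = 0.00686). Of 8 stomatal lineage markers 4 rose and 1 fell in DEX leaves, where 10.4% of all loci rose. All 5 calls ended without one array or another, with adjusted p from 0.0673 to 0.135; without replicate 1 of DEX 1 h 0 of the 8 were called, and without replicate 2 of DEX 4 h 0 rose. Of 4 vascular markers, SUC2 fell by 0.52 in DEX and 0.74 in mock leaves. Root markers RHD6 and EXPA18 fell by 0.32 and 0.36 near the dim end of the scale, where both calls ended without replicate 1 of DEX 1 h, among other arrays (adjusted p of up to 0.0763 and 0.159).

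Centring the arrays on the hybridisation spike-ins adds the same amount to every locus within a treatment. The median change of all loci became 0.34 in DEX and 0.63 in mock leaves, against -0.02 and -0.04 as deposited. A fall smaller than that shift becomes a rise on this scale. The shift is carried by BioB, and BioC, BioD and Cre differed in the other direction in DEX leaves. Under it, the median change of the photosystem and Rubisco list was 0.21 in DEX leaves. That of DNA replication was -0.43 in DEX and 0.38 in mock leaves, and that of the anthocyanin enzymes 1.07 in DEX and -0.31 in mock leaves. Of the 32 lists, 13 of 19 negative medians turned positive in DEX leaves and 24 of 25 in mock leaves. DEX falls then numbered 6 for DNA replication, 3 for leaf growth regulators and 2 for expansins. Called differences numbered 0 for DNA replication, 3 for leaf growth regulators, 0 for early DELLA targets and 10 for anthocyanin enzymes.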

How the data were processed

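Levels were measured on 12 ATH1 arrays, 3 for each of 4 groups (DEX 4 h, DEX 1 h, mock 4 h, mock 1 h), which the labels give. Each deposited value is the log2 level of a probe set, made by the authors with RMA according to the submitters' processing notes; RMA corrects background, normalizes between arrays and summarizes probes, so levels are relative to the other transcripts of an array. Neither the software and its version nor how probe sets were defined is given in the sources used here. Values run from 4.43 to 14.1. Of 21492 probe sets, 64 AFFX controls were kept out of the tests and 21428 loci were tested with no filter on level. The reference (TAIR10.1, names only) names 21231, and 21120 stand for exactly 1 gene with values of their own, since 221 share all values with another. Identical array pairs numbered 0, as did columns of other series. Arrays give no molecule counts, so their number limits precision; the p-values measure the spread between independent experiments of 3 arrays a group.

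Changes were fitted with limma 3.58.1 in R 4.3.3, with a mean per group over all 12 arrays (residual degrees of freedom 8, prior 5.85). Tests were two-sided, with Benjamini-Hochberg adjustment over all loci. The contrasts were DEX 4 h minus DEX 1 h, mock 4 h minus mock 1 h, and their difference. The 20 possible splits of 3 against 3 arrays gave an exact permutation test for each control set. The fit was tested on simulated data with independent normal noise per locus and the same spread in all groups. That setting holds no outlying array and no scaling difference between arrays, so it cannot judge their effect. Figures were drawn with matplotlib 3.10.9. The members, the 32 gene lists and the rules were chosen with earlier results of these arrays known. Lists are described by counts and medians, without a test of the list. One member of a list is not reported here.

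Named genes were the 12 largest rises and 12 largest falls of DEX leaves among called loci of exactly 1 gene whose arrays did not overlap, the 10 largest called differences in each direction, the 6 largest changes in each direction called in both treatments, GAI and RGA, and from each list up to 5 members by smallest p. Added after their values were seen were CHS, F3H, TT19, PAL2, C4H, CHI, FLS1, PAP2, GID1B, GA20OX1, GA3OX1, XERICO, SCL3, AT3G11280, TPS8, CDT1A, CYCA3;2, FAS2, GRF7, CDKB2;1, CDKB2;2, SEX1, GBSS1, XTH31, MYB56, BGLU11 and ABCC2.

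The tested alternatives were the replicate number as a block, a fit on 6 arrays only, tests restricted to loci averaging at least 5, to brighter loci or to loci of exactly 1 gene, renewed quantile normalization, centring on the array median or the hybridisation spike-ins, array weights, robust fitting with a variance trend, thresholds of 0.01 and of 2-fold, and fits lacking 1 array or 1 replicate number. Same-numbered DEX arrays deviated from their group means with correlations of -0.029, -0.098 and 0, and mock arrays with 0.072, 0.007 and 0.011. These correlations set 4 h beside 1 h within a treatment, not DEX beside mock, so they do not settle pairing. The main fit did not take the numbers to pair the samples.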

Additional observations from a re-analysis of the deposited data

Results flagged for a closer look

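The change from 1 h to 4 h differed between DEX and mock leaves, by the test of the difference itself in limma (adjusted p under 0.05), for 274 loci. The values below are the DEX interval minus the mock interval on the log2 scale for those of the 274 that are named.

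Positive differences were led by flavonoid and anthocyanin genes: DFR with 3.42, UF3GT with 2.85, UGT75C1 with 2.78, TT7 with 2.64, PAP1 and PAL1 with 2.51 each, UGT78D2 with 2.43, TT19 with 2.203, MYBL2 with 2.01, TT8 with 1.80, 5MAT with 1.77, F3H with 1.75, CHS with 1.61, C4H with 0.96 and PAL2 with 0.82. Genes tied to gibberellin and DELLA had 2.95 (GA20OX3), 1.35 (LBD40), 1.25 (AT3G11280), 1.14 (GID1B), 1.02 (BHLH154), 0.84 (WRKY27) and 0.82 (GA3). Leaving out one array ended the call of WRKY27 (either of 2 arrays, adjusted p of up to 0.0572) and that of PAL2 (1 array, adjusted p of 0.0508). Brassinosteroid and wall genes had 1.58 (BR6OX2), 0.99 (DWF4) and 1.46 (XTH15). The other positive ones were CRK12 with 2.79, PUP1 with 2.70, MYB56 with 2.18, BGLU11 with 2.15, RD29A with 1.92, AT4G16146 with 1.70, CIPK21 with 1.63, ABCC2 with 1.51 and TTG2 with 1.19.

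Negative differences were found for growth regulators, namely KLU with -1.78, KNAT1 with -1.34, GRF5 with -1.23, GRF7 with -1.02, GIF1 with -0.76 and GRF3 with -0.70. Replication genes had -0.72 (CYCA3;1), -0.72 (CDT1A) and -0.62 (PCNA1). Wall and transport genes had -1.31 (BXL1), -1.23 (BXL2), -1.23 (ABCG35), -1.12 (EXPA3) and -0.89 (AUX1). The other negative ones were DIR1 with -1.50, LSH10 with -1.41, CGA1 with -1.37, PAR1 with -1.32, LHCB2.3 with -1.13, ADS1 with -1.12, KFB-CHS with -0.84 and TPS8 with -0.77. No group had 4 or more arrays, so single arrays were not screened within groups.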

How the results depend on the processing

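Leaving out single arrays or replicate numbers gave 1468 to 5760 DEX calls, 371 to 2439 mock calls and 40 to 412 called differences; the lowest values came without replicate 1 of every group and the highest without replicate 2 of mock 4 h. DEX calls were 2116 at an adjusted p of 0.01 and 376 with a 2-fold minimum. Mock calls were 1086 with only the mock arrays, 3120 with array weights, 16669 centred on the hybridisation spike-ins, 748 at 0.01 and 135 with a 2-fold minimum. Differences were 465, 100, 117 and 132 with array weights, spike-in centring, 0.01 and 2-fold. The cause of these shifts was not tested, except that stricter thresholds call fewer loci by construction. In no setting did a call of the deposited scale turn into a call of the opposite direction (0 loci). Whether the replicate numbers mark shared experiments is not stated, so the replicate block was kept as an alternative. It gave 4100 DEX calls, 1907 mock calls and 267 differences. In their deviations from group means, 7 of 12 arrays correlated best with an array of their own number in another group. Pairing by number is therefore not settled. Of the named calls, leaving out one array ended 24 of 158 in DEX leaves, 23 of 90 in mock leaves and 13 of 56 differences.

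The 27 sign changes of named genes arose under spike-in centring, which adds the same amount to every locus of a treatment, so by construction they mark falls smaller than that shift. In DEX leaves these were RPL5B at 0.1339, LHCB3 at 0.0914, RCA at 0.0751, RHD6 at 0.0499, EGL3 at 0.0227, EXPA18 at 0.0093, CYCA2;4 at 0.0086 and XTH28 at 0.0033. In mock leaves they were MCM7 at 0.3137, CUC3 at 0.3092, PCNA1 at 0.2992, LHCB4.2 at 0.2722, IAA16 at 0.1769, CGA1 at 0.1682, CYCA3;1 at 0.1647, PIF1 at 0.1535, LBD37 at 0.1511, MCM3 at 0.1428, PAL2 at 0.1418, PIF5 at 0.1295, TRY at 0.1293, ZFP8 at 0.1217, TSO2 at 0.1128, RGL2 at 0.1105, GUN4 at 0.1048, EXPA4 at 0.0974 and MYB56 at 0.0598. The spike-ins themselves differed by -0.3656 in DEX and -0.6677 in mock leaves (from -0.5873 to -0.2198 in DEX leaves without single arrays), while BioC at 0.2791, BioD at 0.5286 and Cre at 0.2844 in DEX leaves, and BioD at 0.1717 and Cre at 0.097 in mock leaves, had the other sign. The spike-in families thus did not share a direction between the times.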

Other observations

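Transcripts of the organelle genomes were looked at after their values were seen. Of 77 loci of the mitochondrial genome, 20 rose (26%) and 2 fell (2.6%) in DEX leaves and 14 rose and 0 fell in mock leaves. Among all loci 10.4% rose and 8.98% fell in DEX leaves, and 3.64% rose and 5.64% fell in mock leaves. Of the 77 loci, 13 rose in both treatments. The difference of the intervals was called for 0 of the 77, beside 1.28% of all loci. Some of these loci share all their values, and the 73 distinct profiles gave 17 rises in DEX and 11 in mock leaves. The median change of the 77 was near 0, at -0.00 in DEX and 0.02 in mock leaves, beside -0.02 and -0.04 over all loci. The 3 plastid loci, with 2 distinct profiles, rose in DEX leaves, and 1 of them rose in mock leaves.

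The test of the difference also passed for 23 loci that were not called in DEX leaves, 19 with a positive and 4 with a negative difference, among them CHS, F3H, C4H and PAL2, which fell in mock leaves. Conversely, 26 loci that changed in the same direction in both treatments differed in size, CIPK21 and CGA1 among them.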
